A study of Rattus norvegicus with 6 samples.

Results

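The core circadian clock genes were examined in the vestibular epithelium of control rats and of rats under subchronic exposure to IDPN (3,3'-iminodipropionitrile), a nitrile that damages inner ear hair cells (HCs). They were chosen by name: the activators Arntl, Clock and Npas2, the repressors Per1, Per2, Per3 and Cry1, the nuclear receptors Nr1d1 and Nr1d2, and the output factor Dbp. These were 10 of the 32883 genes in the table, and all 10 were among the 14352 genes with enough counts to be tested. The rats were young adult male Long-Evans animals with no genetic modification, and each of the 6 libraries came from 1 animal, whose 2 utricles and 6 cristae were pooled. The 3 control rats drank plain water, and the 3 rats of the IDPN-4wk group drank water with 20 mM IDPN for 4 weeks. Tissue was collected on the last day of exposure from animals kept on an equal light and dark cycle, and the hour at which each animal was killed is not given in the sources used here.

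The molecular clock is a feedback loop that runs in most cells of the body. BMAL1, the product of Arntl, pairs with CLOCK or its paralog NPAS2, and the pair binds E-box motifs and drives the Period and Cryptochrome genes, whose proteins return to the nucleus and inhibit it. The same pair drives Nr1d1 and Nr1d2, whose products REV-ERBα and REV-ERBβ compete with ROR receptors at ROR elements and repress Arntl and Npas2, so Arntl transcripts peak when those of Nr1d1 and Dbp are low. DBP binds D-box motifs and carries the rhythm to output genes, and the loop has also been described in inner ear tissue.

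Promoter windows of RefSeq (build GRCr8, from 250 bases before to 50 bases after each start) were at hand for 9 of the 10 clock genes, in 11 windows, and were searched on both strands for 4 motifs. The motifs were the E-box CACGTG, the E-box-like CACGTT, the D-box TTANNTAA and the ROR element TNGGTCA. The E-box and the E-box-like motif differ in their last base, so no site counted for both. Among 33469 RefSeq promoter windows of this length, 6.42% held an E-box, 4.83% an E-box-like motif, 5.84% a D-box and 11.1% a ROR element. Of the 9 clock genes, Nr1d1 held an E-box, Nr1d1 and Per2 an E-box-like motif, Per2 a D-box and Arntl a ROR element. Clock, Npas2, Per1, Per3, Nr1d2 and Dbp held none of the 4 motifs. The 200 bases up to the start are shown for Arntl, Nr1d1 and Per2 and for the clock repressor Ciart, which is described further on. The stretches shown each hold a match to 1 or more of the 4 motifs, in capitals. They are Arntl (chr1:176766128-176766327, plus strand, listed by RefSeq as Bmal1), Nr1d1 (chr10:84229455-84229654, minus strand, the second of 2 windows), Per2 (chr9:99496994-99497193, minus strand) and Ciart (chr2:186112247-186112446, minus strand).
Arntl: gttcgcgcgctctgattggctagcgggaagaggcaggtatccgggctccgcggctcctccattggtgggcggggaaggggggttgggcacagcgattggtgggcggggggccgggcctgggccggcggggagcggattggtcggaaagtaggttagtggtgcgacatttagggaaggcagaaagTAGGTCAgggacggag
Nr1d1: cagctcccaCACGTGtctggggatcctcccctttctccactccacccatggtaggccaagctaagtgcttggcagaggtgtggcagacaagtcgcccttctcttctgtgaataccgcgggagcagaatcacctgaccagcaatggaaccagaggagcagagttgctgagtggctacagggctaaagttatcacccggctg
Per2: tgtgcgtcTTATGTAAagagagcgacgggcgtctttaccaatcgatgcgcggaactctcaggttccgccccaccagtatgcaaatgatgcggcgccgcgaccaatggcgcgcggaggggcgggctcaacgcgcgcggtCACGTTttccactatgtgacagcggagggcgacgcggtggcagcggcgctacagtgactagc
Ciart: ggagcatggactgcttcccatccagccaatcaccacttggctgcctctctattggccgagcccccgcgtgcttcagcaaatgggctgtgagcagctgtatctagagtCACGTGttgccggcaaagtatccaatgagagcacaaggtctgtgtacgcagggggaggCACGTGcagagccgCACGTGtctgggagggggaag
In Arntl the ROR element TAGGTCA began 16 bases before the start, and in Nr1d1 the E-box began 191 bases before it. In Per2 the E-box-like motif began 62 bases and the D-box TTATGTAA 192 bases before the start. Ciart held 3 E-boxes, at 93, 35 and 21 bases before the start, and it was 1 of 19 windows (0.0568%) with 3 or more. Of 13 further clock genes with a window 5 held an E-box (Ciart, Bhlhe40, Bhlhe41, Tef and Lonrf3), and Ciart is the one shown because it was called. A match describes these letters and is not a measured binding site.

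Libraries held from 13358678 to 18561991 counts, and expression is given as CPM, counts divided by library size after TMM scaling of the libraries. Genes with an edgeR Padj (p adjusted by Benjamini-Hochberg over all tested genes) under 0.05 and a fold change over 1.5 were called upregulated or downregulated in IDPN-4wk, and this held for 444 and 950 genes. With scaling to library size alone the counts were 762 and 780 genes, and over all tested genes the median log2-Fold change moved from 0.02 to 0.13. All 12 HC markers were detected in every library, and they summed to between 2267 and 2410 CPM in control and between 1165 and 1515 CPM in IDPN-4wk libraries. Libraries were made from whole epithelium, and from them alone fewer cells of a type and less RNA per cell cannot be told apart. For this exposure the study counted HCs in separate rats, and of the regions counted only the central crista had significantly fewer.

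The transcripts of 2 activators were downregulated in IDPN-4wk rats, Arntl to 0.461 and Npas2 to 0.417 of the control level, and Clock was not. Arntl, which encodes the partner required by both CLOCK and NPAS2, stood at 31.0, 84.4 and 64.0 CPM in control replicates 1, 2 and 3 and at 36.7, 24.0 and 22.1 CPM in IDPN-4wk replicates 1, 2 and 3. Control replicate 1 fell below IDPN-4wk replicate 1, so the groups overlapped. The log2-Fold change was -1.12 (SE 0.30, n = 3 per group, edgeR Padj = 0.0260). Npas2, a CLOCK paralog, showed 8.52, 27.3 and 27.9 CPM in control and 12.4, 6.81 and 7.53 CPM in IDPN-4wk libraries. It is described as under ROR element control, though the window searched here held no ROR element. Again the low control value was that of replicate 1, and the high IDPN-4wk value was that of replicate 1. The log2-Fold change of Npas2 was -1.26 (SE 0.38, n = 3 per group, edgeR Padj = 0.0415). Clock itself, the histone acetyltransferase partner, stood at 49.9, 63.9 and 62.2 CPM in control and at 68.0, 51.8 and 53.3 CPM in IDPN-4wk libraries, and the groups overlapped. The log2-Fold value, -0.03 (SE 0.13, edgeR Padj = 0.911), turned to 0.08 with library size alone.

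The 2 calls depended on single animals. In edgeR, Arntl lost its call without control replicate 2 (log2-Fold change -0.78, Padj = 0.106), control replicate 3 (-1.06, Padj = 0.0749), IDPN-4wk replicate 2 (-1.03, Padj = 0.0848) or IDPN-4wk replicate 3 (-0.99, Padj = 0.0611). Npas2 lost its call without the same animals, with log2-Fold changes of -1.04, -1.02, -1.10 and -1.17 and edgeR Padj of 0.140, 0.146, 0.128 and 0.0872. Both kept the call, and the lower level in IDPN-4wk, without control replicate 1 or without IDPN-4wk replicate 1. The DESeq2 Wald test gave Padj of 0.0685 for Arntl and 0.105 for Npas2, and limma voom gave 0.0484 and 0.103.

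None of the 4 repressors passed both thresholds, although all 4 had higher means in IDPN-4wk rats. Per1, the Period gene that also answers quickly to glucocorticoids and to light, measured 35.6, 15.4 and 14.5 CPM in control and 22.5, 55.3 and 41.7 CPM in IDPN-4wk libraries. Per2, whose protein carries much of the timing of the loop, measured 111, 32.2 and 46.1 CPM in control and 69.2, 109 and 137 CPM in IDPN-4wk libraries. In both genes the highest control value was that of replicate 1 and exceeded the lowest IDPN-4wk value, that of replicate 1. The log2-Fold change was 0.87 for Per1 (SE 0.36, edgeR Padj = 0.115) and 0.73 for Per2 (SE 0.37, edgeR Padj = 0.203).

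Per3, the Period gene least needed for the loop itself, stood at 159, 97.2 and 116 CPM in control and at 130, 172 and 181 CPM in IDPN-4wk libraries, with a log2-Fold change equal to 0.38 (SE 0.17, edgeR Padj = 0.142). Cry1, a cryptochrome that binds and silences the activator pair, stood at 41.1, 22.2 and 25.3 CPM in control and at 25.6, 34.1 and 39.2 CPM in IDPN-4wk libraries. Its highest value of all 6 animals was that of control replicate 1. The log2-Fold change of Cry1 was 0.16 (SE 0.22, edgeR Padj = 0.656) and fell to -0.01 without control replicate 2.

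Nr1d1 was the single clock gene whose groups did not overlap, with 183, 151 and 192 CPM in control and 229, 203 and 220 CPM in IDPN-4wk libraries. The difference of Nr1d1 (0.31 on the log2 scale, SE 0.09, edgeR Padj = 0.0427) passed the threshold on Padj but not that on fold change. Nr1d1 overlaps the thyroid hormone receptor gene Thra, and the libraries do not keep the strand, so reads of the shared part could not be separated. Thra stood between 52.8 and 66.8 CPM in the 6 libraries, and its log2-Fold change was 0.08 (edgeR Padj = 0.569). Its paralog Nr1d2 stood at 224, 137 and 161 CPM in control and at 186, 213 and 232 CPM in IDPN-4wk libraries, with a log2-Fold change equal to 0.27 (SE 0.15, edgeR Padj = 0.244).

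Dbp, a PAR bZIP factor and a direct target of the activator pair, measured 253, 101 and 140 CPM in control and 228, 296 and 302 CPM in IDPN-4wk libraries. Control replicate 1 exceeded IDPN-4wk replicate 1, and the other 2 controls were the lowest of the 6 animals. The log2-Fold change was 0.74 (SE 0.26, edgeR Padj = 0.0678), and Dbp was called upregulated with library size alone (0.85, Padj = 0.0334), with limma voom (0.83, Padj = 0.0394) and with no filter on low counts (0.74, Padj = 0.0304).

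**Figure D1:**
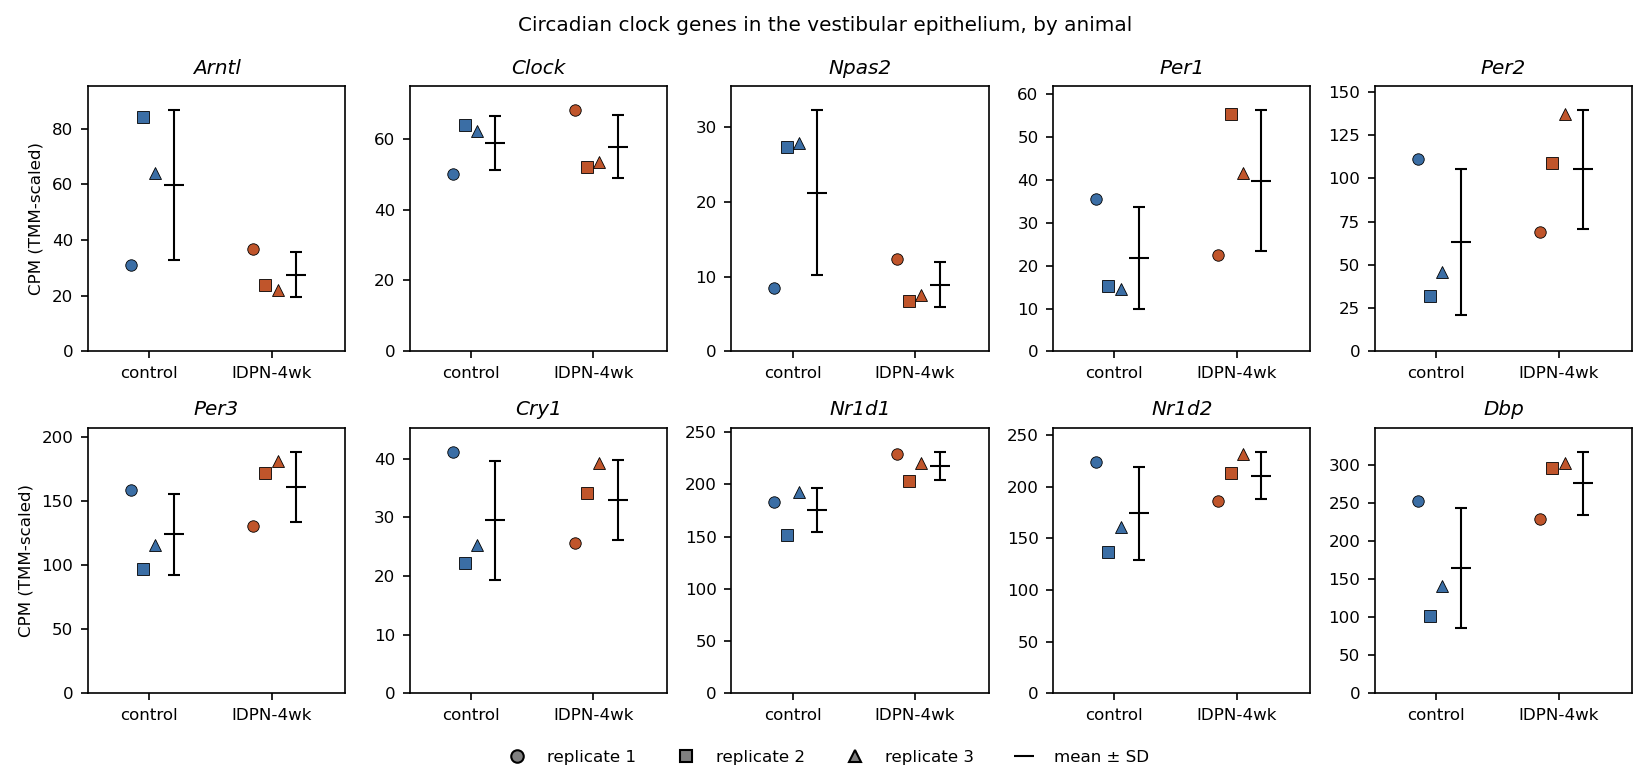
CPM (TMM-scaled, vertical axis from 0) of the 10 clock genes in the 3 control (blue) and 3 IDPN-4wk (orange) animals, 1 panel per gene, with marker shape for the replicate and mean ± SD bars (n = 3). In Arntl and Npas2 the control circle (replicate 1) lies far below the other controls, at 31.0 and 8.52 CPM, and in Per1, Per2, Per3, Cry1, Nr1d2 and Dbp it lies above them.

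In all, 2 of the 10 clock genes were called, against 9.71% of all tested genes. None was called higher, against 3.09% of all tested genes, and 2 were called lower, against 6.62%. By edgeR, 6 of the 10 had an unadjusted p under 0.05, and 3 (Arntl, Npas2 and Nr1d1) had a Padj under 0.05. In 1 of the 10 the groups did not overlap, against 37.8% of all tested genes. The log2-Fold change had a median of 0.29 over the 10 and of 0.02 over all tested genes (0.49 over the 10 without control replicate 1 and 0.17 without control replicate 2), and 7 of the 10 had a positive value.

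Without control replicate 1, 6 of the 10 clock genes were called, against 8.92% of all tested genes in that fit. Arntl (-1.43, edgeR Padj = 8.99e-04) and Npas2 (-1.64, edgeR Padj = 9.16e-04) were then lower in IDPN-4wk. Per1 (1.42, edgeR Padj = 0.0105), Per2 (1.43, edgeR Padj = 0.00370), Per3 (0.60, edgeR Padj = 0.0162) and Dbp (1.19, edgeR Padj = 6.82e-04) were then higher. Nr1d2 passed on Padj but not on fold change (0.50, edgeR Padj = 0.0133), Nr1d1 passed on neither (0.34, edgeR Padj = 0.0616), and Cry1 (0.48) and Clock (-0.13) did not pass. This fit leaves 2 controls against 3 treated animals, and no label sets control replicate 1 apart from the other controls in treatment, tissue or batch. Leaving out control replicate 2, control replicate 3, IDPN-4wk replicate 2 or IDPN-4wk replicate 3 left 0 of the 10 called by edgeR, with 4, 3, 4 and 4 genes at an unadjusted p under 0.05. By DESeq2 on all 6 libraries 0 were called, with 3 at an unadjusted p under 0.05.

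**Figure D2:**
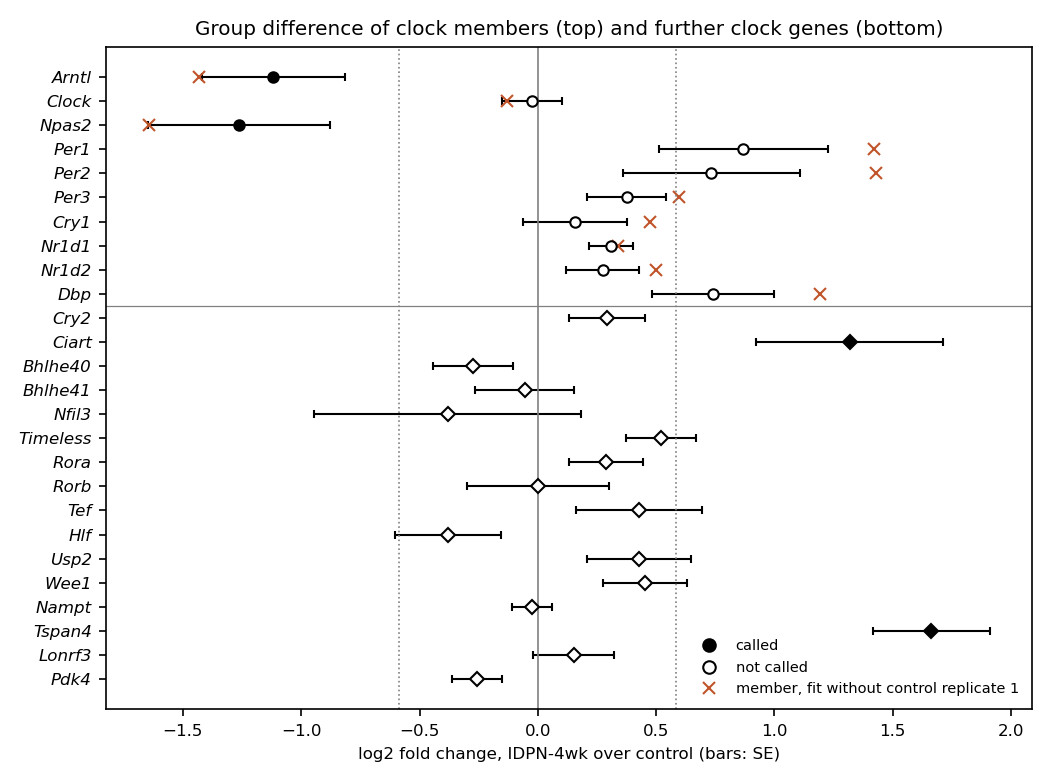
Log2-Fold change of IDPN-4wk over control (horizontal axis, bars SE) for the 10 clock genes (top) and further clock genes (bottom), with filled symbols for called genes, dotted lines at the fold change threshold of 1.5 and crosses for the fit without control replicate 1. The cross lies further from 0 than the point in all 10 clock genes, for instance at 1.43 against 0.73 in Per2 and at -1.43 against -1.12 in Arntl. A gene moves this way where control replicate 1 lies on the treated side of the other controls, so the crosses restate those values. Fits without the other animals are not drawn.

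The clock genes varied more between animals of a group than most genes did. The SD of log2 CPM within groups had a median of 0.45 over the 10 clock genes and of 0.16 over all tested genes, and 9 of the 10 lay above the latter. Npas2 had a larger within-group SD than 97.5% of tested genes, Per2 than 97.3%, Per1 than 96.5% and Arntl than 94.7%. At the other end stood Clock (62.8%) and Nr1d1 (43.7%). Among the 3 controls the highest animal exceeded the lowest 3.46-fold in Per2, 3.27-fold in Npas2, 2.72-fold in Arntl and 2.45-fold in Per1. Among the 3 IDPN-4wk animals the same folds were 1.98, 1.82, 1.66 and 2.46. The lowest count of any of these genes in any library was 117, for Npas2 in IDPN-4wk replicate 3.

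Over the 10 clock genes, control replicate 1 was nearer to each of the 3 treated animals than to either of the other controls. The median absolute log2 difference in CPM over these genes was 0.19 from control replicate 1 to IDPN-4wk replicate 2 and 0.21 to IDPN-4wk replicate 3, and it was 1.04 to control replicate 2 and 0.77 to control replicate 3. Control replicates 2 and 3 differed by 0.24 from each other, and IDPN-4wk replicates 2 and 3 by 0.12. IDPN-4wk replicate 1 lay between, at 0.39 from control replicate 1, 0.57 and 0.42 from the other controls, and 0.41 and 0.54 from the other treated animals. Over all tested genes control replicate 1 was with the controls: the median absolute log2 difference was 0.17 and 0.15 to the other controls and from 0.23 to 0.28 to the treated animals. Its HC markers summed to 2294 CPM, within the control range.

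Arntl and Dbp were ordered oppositely in all 15 pairs of the 6 animals, including the 3 pairs among controls and the 3 among IDPN-4wk animals, which treatment does not separate. In these 6 within-group pairs, Per2, Per3, Cry1 and Nr1d2 were ordered as Dbp in all 6, Per1 in 4, Nr1d1 in 3, Npas2 in 2, Clock in 1 and Arntl in 0. So 5 of the 9 other clock genes followed the order of Dbp, or its reverse, in all 6 pairs, and 5.53% of all tested genes did. Over all 15 pairs Per3 was ordered as Dbp in 15, Per2 and Nr1d2 in 14, Per1 and Cry1 in 13, Nr1d1 in 11, Clock in 5 and Npas2 in 2. These genes share the same 6 libraries, so the counts describe these animals.

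**Figure D3:**
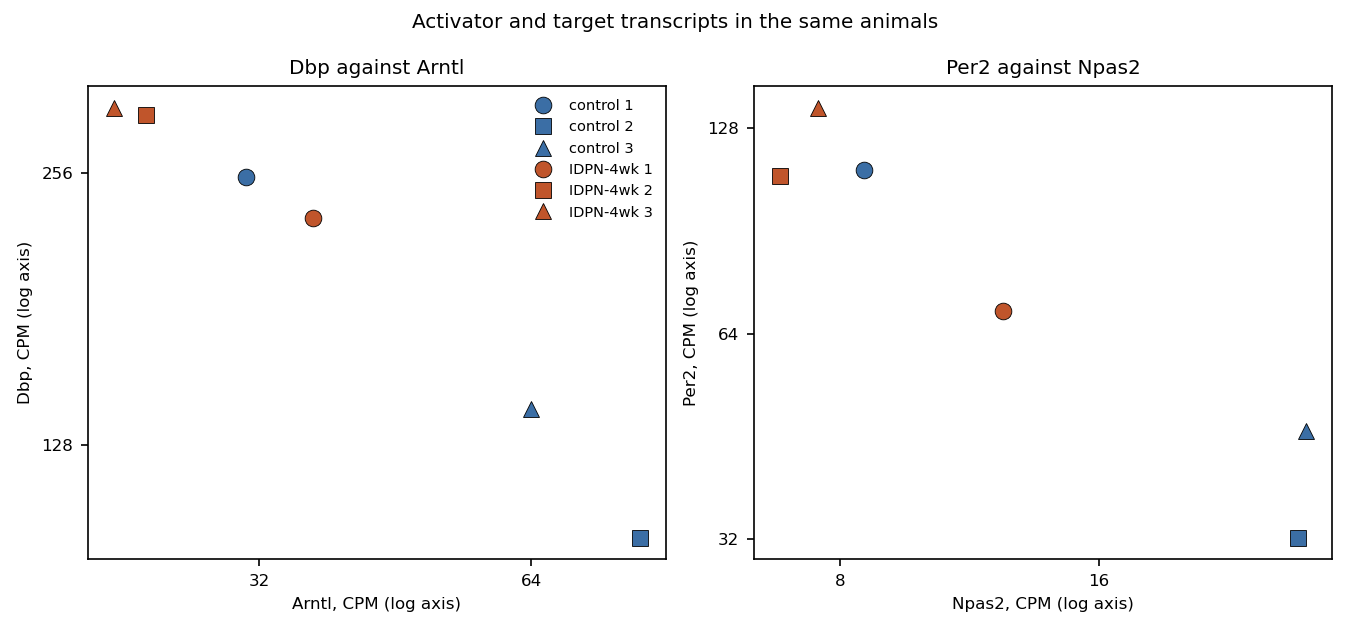
CPM of Dbp against Arntl (left) and of Per2 against Npas2 (right) in the 6 animals, both axes on a log scale, colour for group and marker shape for replicate. The left points run in 1 descending line from IDPN-4wk replicate 3 (22.1 and 302 CPM) to control replicate 2 (84.4 and 101 CPM), with control replicate 1 (31.0 and 253 CPM) among the treated animals.

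A ratio of 2 transcripts within a library does not depend on how libraries are scaled. The log2 ratio of Arntl to Dbp was -3.02, -0.26 and -1.13 in the controls and -2.63, -3.62 and -3.76 in the IDPN-4wk animals. Control replicate 1 lay among the treated animals, and the group means differed by -1.87, with a width of 2.76 among the controls alone. The log2 ratio of Arntl to Nr1d1 was -2.56, -0.84 and -1.59 in control and -2.64, -3.08 and -3.31 in IDPN-4wk animals. This was the single ratio of the 5 examined in which the groups did not overlap, by a margin smaller than the spread in either group, and its means differed by -1.35. The means of Npas2 to Dbp differed by -1.94, of Npas2 to Per3 by -1.50 and of Clock to Per2 by -0.91, with overlapping groups in all 3. These differences are given as descriptions, with no test.

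Among 18 further genes of the clock pathway and its usual targets, 17 were tested, since Arntl2 had at most 3 counts in a library. Of the 17, 2 were called higher, against 3.09% of all tested genes, and none was called lower, against 6.62%. In 5 of them (Timeless, Hlf, Wee1, Tspan4 and Pdk4) the groups did not overlap, against 37.8% of all tested genes, and the log2-Fold median was 0.29, or from 0.17 to 0.43 when each animal was left out (0.43 without control replicate 1, 0.33 without IDPN-4wk replicate 1 and at most 0.19 without any of the other 4). Ciart, which encodes CHRONO, a repressor of the activator pair, stood at 28.9, 7.41 and 9.91 CPM in control and at 28.2, 43.6 and 44.0 CPM in IDPN-4wk libraries (log2-Fold change 1.32, SE 0.39, edgeR Padj = 0.0393). The 3 E-boxes shown above belong to this gene, and control replicate 1 again stood at the level of IDPN-4wk replicate 1. The call for Ciart held without control replicate 1 (2.16, edgeR Padj = 1.94e-04). It was lost without control replicate 2 (0.99, Padj = 0.106), control replicate 3 (1.08, Padj = 0.131), IDPN-4wk replicate 1 (1.49, Padj = 0.0532), IDPN-4wk replicate 2 (1.22, Padj = 0.105) or IDPN-4wk replicate 3 (1.20, Padj = 0.0799), all by edgeR, and by DESeq2 (Padj = 0.129). For Tspan4, which encodes a tetraspanin, every treated animal exceeded every control. It stood at 37.1, 17.3 and 22.0 CPM in control and at 60.1, 98.8 and 83.3 CPM in IDPN-4wk libraries (log2-Fold change 1.66, SE 0.25, edgeR Padj = 0.00107), and it kept its call without any 1 animal, with values from 1.45 to 2.04.

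Timeless, listed with the repressors and named because its groups did not overlap, passed on Padj but not on fold change (log2-Fold change 0.52, SE 0.15, edgeR Padj = 0.0317). Cry2, the second cryptochrome, stood at 185, 118 and 120 CPM in control and at 151, 172 and 195 CPM in IDPN-4wk libraries (log2-Fold change 0.29, edgeR Padj = 0.232). Tef, a PAR bZIP relative of Dbp, stood at 181, 74.2 and 107 CPM in control and at 119, 179 and 189 CPM in IDPN-4wk libraries (0.43, edgeR Padj = 0.295). Cry2, Ciart and Tef were ordered as Dbp in all 6 within-group pairs. Of the 17 tested further clock genes, 4 followed the order of Dbp or its reverse in all 6, against 5.53% of all tested genes. Hlf, the third PAR bZIP gene, was ordered as Dbp in 3 of the 6 pairs. It stood at 5.81, 5.59 and 4.39 CPM in control and at 4.03, 4.18 and 3.93 CPM in IDPN-4wk libraries (-0.38, edgeR Padj = 0.269).

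Nfil3, which encodes the repressor of D-box genes, stood at 1.42, 5.31 and 5.59 CPM in control and at 5.97, 2.17 and 1.42 CPM in IDPN-4wk libraries, so that control replicate 1 was low and IDPN-4wk replicate 1 high, as for Npas2. Its log2-Fold change was -0.38 (SE 0.56, edgeR Padj = 0.677). The log2-Fold changes of the E-box repressors Bhlhe40 and Bhlhe41 were -0.27 (edgeR Padj = 0.288) and -0.05 (edgeR Padj = 0.885). In both the highest of the 6 animals was control replicate 1, at 141 and 31.1 CPM. Rora, which encodes an activator at ROR elements, showed a log2-Fold value of 0.29 (edgeR Padj = 0.233).

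**Figure D4:**
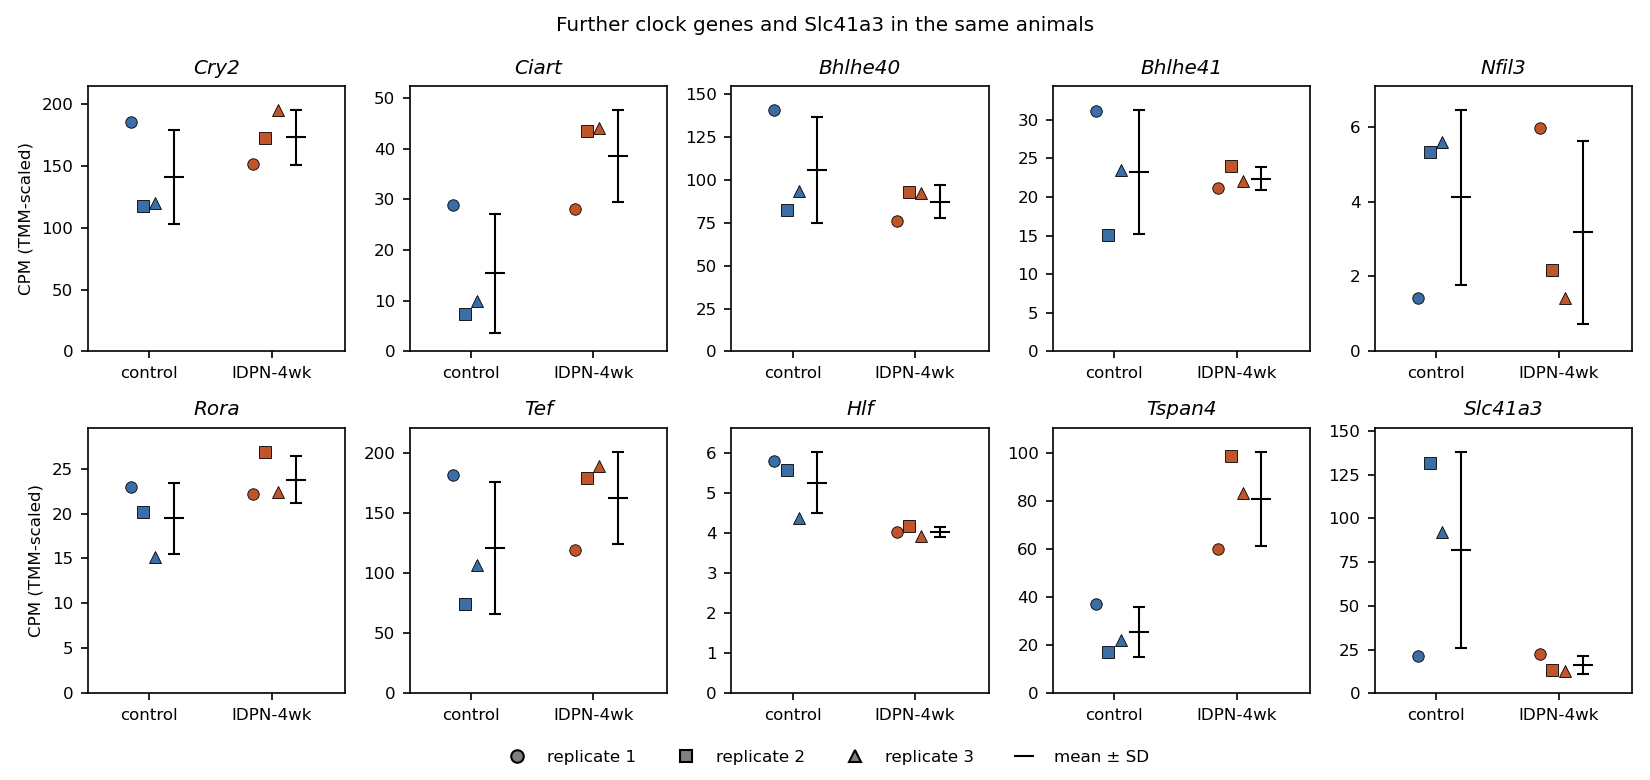
CPM (TMM-scaled, vertical axis from 0) of 9 further clock genes and of Slc41a3 in the 3 control (blue) and 3 IDPN-4wk (orange) animals, with marker shape for the replicate and mean ± SD bars (n = 3). Control replicate 1 stands with the treated animals in Ciart (28.9 CPM) and Slc41a3 (21.3 CPM) and with the controls in Tspan4 (37.1 CPM). Slc41a3 was picked for its likeness to Arntl over these same libraries, so the place of control replicate 1 in it restates that choice.

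Kinases, ubiquitin ligases and phosphatases set the stability of the clock proteins. Of 12 such genes 0 were called by edgeR, against 9.71% of all tested genes, with 3 at an unadjusted p under 0.05, and 0 by DESeq2 or limma voom, with 3 and 4 at an unadjusted p under 0.05. In 4 of the 12 (Csnk1d, Btrc, Ppp1cb and Ppp1cc) the groups did not overlap, against 37.8% of all tested genes. The phosphatase subunits Ppp1cb (0.47) and Ppp1cc (0.38), named after their values were seen, passed on edgeR Padj, at 8.48e-04 and 0.0317, but not on fold change. The median over the 12 was 0.03 on the log2 scale (-0.01 without IDPN-4wk replicate 2), with a range from -0.23 to 0.47. The median within-group SD of log2 CPM was 0.10, against 0.45 for the clock genes, and none of the 12 followed the order of Dbp or its reverse in all 6 within-group pairs.

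The genes most like Arntl and Dbp across the 6 libraries were sought among 10700 genes with a mean over 5 CPM. By Pearson's r of log2 CPM, those most like Arntl were Tmem208 (0.992), Igfbp7 (0.990) and Slc41a3 (0.989), and those most like Dbp were Ciart (0.991), Sh3gl1 (0.987) and Rpa1 (0.985). With 6 libraries and this many genes, high values of r arise readily, and they are given as descriptions. Tmem208, Igfbp7, Sh3gl1 and Rpa1 followed with small changes, between -0.18 and 0.18 in log2-Fold change, and were not called. Slc41a3, which encodes a magnesium transporter, followed with a larger one. It stood at 21.3, 132 and 92.4 CPM in control and at 22.4, 13.6 and 13.1 CPM in IDPN-4wk libraries (log2-Fold change -2.33, SE 0.50, edgeR Padj = 0.00876), with control replicate 1 below IDPN-4wk replicate 1. Its call held without any 1 animal and was lost with limma voom (-2.01, Padj = 0.0572).

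Glucocorticoids act on Per1 and, as a daily hormonal signal, on clocks of peripheral tissues, so 12 of their target genes were set beside the clock genes. The list contains Per1 and Pdk4, which were also in the clock lists. Of the 12, 2 were called, both higher, against 3.09% of all tested genes called higher, and the log2-Fold median was 0.44. Ddit4, an inhibitor of mTOR signalling, showed a log2-Fold value of 0.61 (SE 0.13, edgeR Padj = 0.00949), and Mt2A, a metallothionein, one of 1.37 (SE 0.33, edgeR Padj = 0.0158). Sgk1, a kinase gene and a classic target, named after its values were seen, ran the other way. It stood at 380, 318 and 310 CPM in control and between 199 and 283 CPM in IDPN-4wk libraries, without overlap, and it passed on Padj but not on fold change (-0.46, SE 0.12, edgeR Padj = 0.0245). Tsc22d3, which encodes the glucocorticoid-induced leucine zipper, was not called. It stood at 221, 79.5 and 91.1 CPM in control and at 139, 204 and 252 CPM in IDPN-4wk libraries (0.60, edgeR Padj = 0.240), and it was ordered as Dbp in all 6 within-group pairs. Of the 12 glucocorticoid targets it was the 1 that followed the order of Dbp or its reverse in all 6 pairs, against 5.53% of all tested genes.

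Fkbp5, a co-chaperone of the glucocorticoid receptor, stood at 9.81, 3.98 and 3.11 CPM in control and at 6.61, 8.10 and 10.4 CPM in IDPN-4wk libraries (0.56, edgeR Padj = 0.324). In Tsc22d3 and Fkbp5, as in Per2, control replicate 1 stood among the treated animals. Zbtb16, named after its values were seen, stood at 18.0, 3.70 and 1.98 CPM in control and at 2.66, 7.27 and 17.8 CPM in IDPN-4wk libraries. It was not called (0.22, SE 0.73, edgeR Padj = 0.867), and its within-group SD was larger than that of 99.6% of tested genes. Without control replicate 1, 5 of the 12 were called, all higher, against 8.92% of all tested genes called in either direction in that fit, and the median was 0.70. Without control replicate 2 the edgeR count was 1 and the median 0.29. Without control replicate 3 the count was 0 and the median 0.23, and without IDPN-4wk replicate 2 the count was 0 and the median 0.30. Hour of death, handling and hormone levels are not given in the sources used here, and their part in the order of the animals was not tested.

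**Figure D5:**
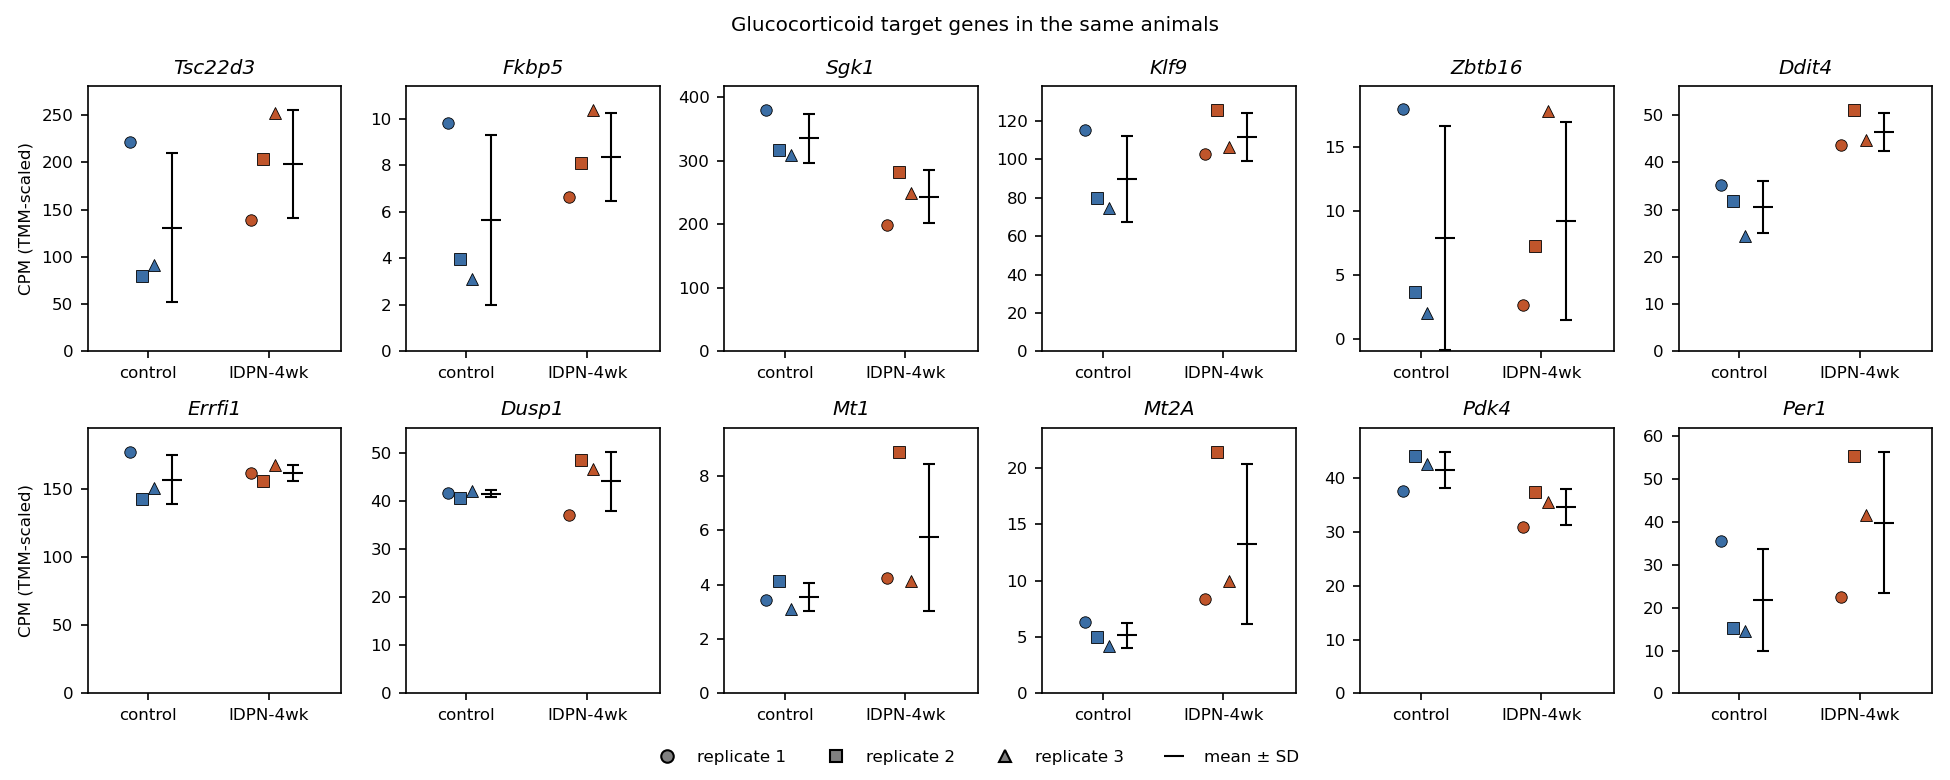
CPM (TMM-scaled, vertical axis starting at 0, or below it where the SD bar reaches below 0) of the 12 glucocorticoid target genes in the 3 control (blue) and 3 IDPN-4wk (orange) animals, with marker shape for the replicate and mean ± SD bars (n = 3). In Tsc22d3 and Fkbp5 control replicate 1, at 221 and 9.81 CPM, lies above the other controls, and in Ddit4 and Mt2A the groups do not overlap.

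Immediate early genes answer within minutes to stimulation of a cell. Of 11 such genes 10 were tested and 2 were called, both higher, against 3.09% of all tested genes: Fosl1 (log2-Fold change 2.72, SE 0.70, edgeR Padj = 0.0202) and Junb (0.85, SE 0.18, edgeR Padj = 0.00842). Fosl1 had 4, 1 and 9 counts in control and 39, 57 and 11 counts in IDPN-4wk libraries, so it passed the filter on low counts only through the treated group, where it was high, and it was not tested with a mean count of at least 50. The count of called genes was 1 without control replicate 1, control replicate 2, IDPN-4wk replicate 1 or IDPN-4wk replicate 2. It was 4 when IDPN-4wk replicate 3 was left out. Fos stood at 8.98, 8.74 and 7.43 CPM in control and at 18.7, 21.9 and 7.85 CPM in IDPN-4wk libraries (0.95, SE 0.31, edgeR Padj = 0.0515). Fos was called higher with the DESeq2 Wald test (Padj = 0.00646), and by edgeR with library size alone (Padj = 0.0270), with upper quartile scaling (Padj = 0.0435), with no filter on low counts (Padj = 0.0258) and without IDPN-4wk replicate 3 (1.26, Padj = 3.95e-04). With limma voom its Padj was 0.127. For Fos control replicate 1 was close to the other controls and IDPN-4wk replicate 3 stood near them. Fos was ordered as Dbp in 3 of the 6 within-group pairs, and of the 10 tested genes 2 followed the order of Dbp or its reverse in all 6 pairs, against 5.53% of all tested genes: Nr4a1, ordered as Dbp, and Egr1, reversed, both named after their values were seen.

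Levels of transcripts that mark cell types are given here beside those of the clock genes. Of the 12 HC markers 8 were called lower (Myo7a, Otof, Tmc1, Myo15a, Cdh23, Calb2, Ocm2 and Slc17a8), against 6.62% of all tested genes called lower, with a log2-Fold median of -0.99. Supporting cell markers (Otog, Otogl and Gjb6 called lower of 10, median -0.33) summed to between 11332 and 12207 CPM in control and between 6363 and 7844 CPM in IDPN-4wk libraries. Dark cell and melanocyte markers (Kcnq1, Atp1b2 and Slc12a2 called lower of 8, median -0.63) summed to between 2011 and 2573 CPM in control and between 1445 and 1611 CPM in IDPN-4wk libraries. Control replicate 1 stood with the controls in these 3 sums, and also in Nr1d1. In Arntl, Npas2, Per1, Per2, Per3, Nr1d2 and Dbp it stood among the treated animals. In Clock it was the lowest of all animals and in Cry1 the highest.

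The shares over all tested genes to set beside the next counts are 3.09% called higher, 6.62% called lower and 9.71% called in either direction. Of 8 glia markers 1 (Pmp22) was called lower (median -0.48), with sums from 12286 to 15476 CPM in control and from 8924 to 12237 CPM in IDPN-4wk libraries. Neuron markers had 1 of 6 called higher (Nefh) and 1 called lower (Snap25), and their sums were from 94.7 to 103 CPM in control and from 63.5 to 69.2 CPM in IDPN-4wk libraries. Nefh had 12, 5 and 3 counts in control and 18, 53 and 25 counts in IDPN-4wk libraries, so it was tested through the treated group, where it was high, and it was not tested with a mean count of at least 50. Macrophage and leukocyte markers had 1 of 9 called higher (C1qb) and 1 called lower (Cd74) (median 0.14), with overlapping sums of 115 to 171 and 88.9 to 163 CPM. Stroma markers had 1 of 8 called higher (Col1a1) and 2 called lower (Lum and Fn1) (median -0.10), with sums of 1067 to 1219 and 984 to 1071 CPM. Endothelium markers had 0 of 4 called by edgeR, with 2 at an unadjusted p under 0.05 (median -0.22), and sums of 281 to 359 and 255 to 285 CPM. Red blood cell markers had 1 of 3 called higher (Hbb) (median 0.66), with sums of 95.3 to 113 and 110 to 221 CPM. When each animal was left out, the called glia markers numbered from 0 to 4, the red blood cell markers from 0 to 2, the macrophage and leukocyte markers from 1 to 3 and the neuron markers from 1 to 2. The call of C1qb was lost without control replicate 3 or IDPN-4wk replicate 1. Nefh lost its call without control replicate 2, control replicate 3 or IDPN-4wk replicate 2. The part of these marker levels in the levels of the clock genes was not tested.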

How the data were processed

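RNA of the vestibular epithelium of 3 control and 3 IDPN-4wk rats was sequenced by the authors as SMART-seq2 libraries primed with oligo-dT, without strand and without molecular identifiers. The labels give 1 batch. The authors mapped reads with STAR (2.5.3a in the submitters' processing notes) to Rnor6.0 and estimated counts with RSEM (1.3.0 in those notes). The deposited values are expected counts per gene, not normalized, and all were whole numbers. Groups were taken from the treatment label, and replicate numbers only name animals. The animal codes in the sample titles share a prefix in control replicates 1 and 2 and another in the 3 treated animals, and the labels do not say what it marks.

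Low genes were removed by filterByExpr, with a minimum of 10 counts and a minimum total of 15. Libraries were scaled with TMM and compared by the two-sided quasi-likelihood test of edgeR 4.0.16 in R 4.3.3, with Benjamini-Hochberg adjustment over all 14352 genes tested. The test was tested on simulated data. The standard error (SE) was taken from the quasi F statistic. P-values measure the spread between animals, with n = 3 per group. DESeq2 1.42.0, limma 3.58.1 (voom), other scalings, filters and thresholds and leaving out each animal were the alternatives. Log2 CPM used a prior count of 2. Depth ranged from 13358678 to 18561991 counts per library, and the clock genes had at least 117 counts in each library, so the spread between animals sets their error.

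The clock genes and all lists were chosen with earlier results of these data known. Named were all 10 clock genes, the called genes of every list, Cry2, Tef, Hlf, Nfil3, Bhlhe40, Bhlhe41, Rora, Tsc22d3, Fkbp5 and Fos, and the 3 genes most like Arntl and Dbp. Motifs were searched in RefSeq promoters of GRCr8, another build than that of the counts, so coordinates belong to these windows only. Of the further clock genes, 1 counted in the totals is not reported here by name.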

Additional observations from a re-analysis of the deposited data

How the results depend on the processing

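With 3 animals per group, 1 library could end a call. The count of called clock genes, 2 in the reported edgeR fit, was 0 with the DESeq2 Wald test (3 at an unadjusted p under 0.05), 0 with glmTreat (2 at an unadjusted p under 0.05) and from 0 to 6 when each animal was left out. It was 6 without control replicate 1 and 2 or 3 under the other alternatives. Of the further clock genes, 2 were called in the reported fit, 1 with DESeq2, 1 with glmTreat and from 1 to 4 when each animal was left out, 4 of them without control replicate 1. Over all genes the count was 1394 in the reported fit, 2778 with Padj alone and 453 with glmTreat. For the Arntl to Dbp ratio, the difference between groups ran from -2.64 to -1.26 when each animal was left out and kept its direction. Log2-Fold changes of Clock (from -0.17 to 0.08) and Cry1 (from -0.01 to 0.48) changed sign across the alternatives, and the other 8 clock genes kept theirs in all of them. No paired analysis was possible because no label ties a control animal to a treated one, and the replicate numbers used here only name the animals.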
